A study of Mus musculus with 4 samples.

Results

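Basophils are rare granulocytes of the bone marrow (BM). In these data they were taken as cells with at least 3 unique molecular identifiers (UMIs, each standing for 1 captured transcript) of the proteases Mcpt8 and Prss34 together and at least 1 UMI of Ms4a2, Fcer1a and Cpa3 together, that is, they were chosen by their own UMI counts of these 5 genes. Of 39743 BM cells that passed the filter (300 or more genes, no more than 20% mitochondrial UMIs), 460 (1.16%) met both conditions. The 6 markers Mcpt8, Prss34, Ms4a2, Fcer1a, Cpa3 and Gata2 were chosen with results of these data known, so their levels in the gated cells describe the choice and test nothing.

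The BM came from 5TMM mice, in which cells of the mouse myeloma line 5TGM1 (carrying luciferase) had been injected into C57BL/KawRij mice, 6 weeks old per the study's methods, and had grown for weeks. All 4 mice carried this tumor. Of these, 2 mice received vehicle and 2 received Purinostat Mesylate (PM), an inhibitor of class I and IIb histone deacetylases, at 10 mg/kg, and BM was taken after 24 h. A single droplet library was made per mouse, with no sorting of cell types named in the sources used here, and the labels give neither sex nor genotype. There were no mice without tumor, so the PM effect and the tumor cannot be looked at separately. The libraries are called vehicle 1, vehicle 2, PM 1 and PM 2.

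Basophils arise from progenitors that also give rise to mast cells, eosinophils and neutrophils, and the transcription factor Gata2 is needed for their development. They carry the high-affinity IgE receptor, whose alpha chain is encoded by Fcer1a, beta chain by Ms4a2 and signaling gamma chain by Fcer1g, they respond to IL-3, and they release histamine, leukotrienes and IL-4. Mcpt8 and Prss34 encode the serine proteases mMCP-8 and mMCP-11, which in mice mark basophils, and Cpa3 encodes a carboxypeptidase that mast cells share. The genes lie on GRCm38 at chr14:56082166-56085273 on the minus strand (Mcpt8), chr17:25298394-25300165 on the plus strand (Prss34), chr3:20215620-20242181 on the minus strand (Cpa3) and chr6:88193891-88207032 on the plus strand (Gata2).

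Prss34, Ms4a2, Fcer1a and Cpa3 had their highest levels in the gated cells of highest Mcpt8 level, which describes genes of the gate. The 250 bases before the RefSeq start of Prss34, Ms4a2 and Cpa3 are shown because GATA factors are known to act at basophil and mast cell genes, and these were chosen among the 6 markers with their matches known. They lie on GRCm38.p6 at chr17:25298144-25298393 on the plus strand (Prss34), chr19:11623720-11623969 on the minus strand (Ms4a2) and chr3:20242182-20242431 on the minus strand (Cpa3). Capitals mark matches, on either strand, to the GATA factor motif, spelled AGATAA or AGATAG or TGATAA or TGATAG, and to the RUNX motif, spelled TGTGGT. The sequences read 5′ to 3′ toward the gene.
Prss34: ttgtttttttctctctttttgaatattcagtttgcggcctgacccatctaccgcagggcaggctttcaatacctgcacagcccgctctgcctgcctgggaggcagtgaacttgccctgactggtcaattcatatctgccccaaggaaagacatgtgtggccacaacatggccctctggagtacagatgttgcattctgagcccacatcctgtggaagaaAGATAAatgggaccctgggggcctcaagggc
Ms4a2: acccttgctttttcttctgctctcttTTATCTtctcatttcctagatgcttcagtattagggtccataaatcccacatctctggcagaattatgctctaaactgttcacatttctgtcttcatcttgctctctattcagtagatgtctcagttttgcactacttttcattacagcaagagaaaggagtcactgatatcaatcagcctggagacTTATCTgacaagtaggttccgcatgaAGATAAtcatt
Cpa3: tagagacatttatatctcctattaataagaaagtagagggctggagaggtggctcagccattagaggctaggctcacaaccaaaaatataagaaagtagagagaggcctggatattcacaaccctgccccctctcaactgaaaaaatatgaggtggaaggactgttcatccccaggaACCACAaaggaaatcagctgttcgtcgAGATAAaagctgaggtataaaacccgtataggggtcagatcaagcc
The Prss34 window held 1 GATA match and 0 RUNX matches, the Ms4a2 window 3 GATA matches and 0 RUNX matches, and the Cpa3 window 1 of each. Of the windows not shown, that of Fcer1a held 1 of each, that of Mcpt8 held 0 GATA matches and 2 RUNX matches, and both windows of Gata2 held 0 of either. The Mcpt8 window, at chr14:56085198-56085447, lies partly inside the annotated Mcpt8 gene. The Gata2 window at chr6:88198414-88198663 lies inside the annotated Gata2 gene. Among all 32851 RefSeq windows of this length, 26.5% held a GATA match and 14.0% a RUNX match, so a match alone is common.

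The 4 libraries held 86052982 (vehicle 1), 69828595 (vehicle 2), 109447030 (PM 1) and 74388936 UMIs (PM 2). The gated cells numbered 87, 84, 156 and 133 in the same order and carried 1310647, 1071782, 2084863 and 1797387 UMIs. Their depth ran from 539 to 93130 UMIs a cell with a median of 6927. No barcode of a gated cell was shared between libraries, whereas 18 to 39 barcodes of kept cells were shared by each pair of libraries.

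The basophil markers matched the name in the gated cells as a whole, and some markers of related cells were also above their level in the other kept cells. Gata2, which the conditions did not use, had a UMI in 91.5% of the gated cells and reached 1080 CPM (UMIs of the gene per 1000000 UMIs of the summed cells), against 12.6 CPM in the other kept cells. Mcpt8 stood at 5255 against 6.31 CPM, Prss34 at 9024 against 1.86 CPM, Ms4a2 at 930 against 5.35 CPM, Fcer1a at 604 against 0.725 CPM and Cpa3 at 792 against 3.43 CPM. Of 10 mast cell markers 4 were at 0 (Mcpt4, Mrgprb1, Mrgprb2 and Tph1). The mast cell list summed to 0.302 UMIs per 1000, against 0.0538 in the other kept cells (5 of 10 genes higher), and its most abundant gene was Slc18a2, the monoamine transporter, at 202 CPM. The eosinophil list summed to 0.547 against 0.0383 UMIs per 1000 (6 of 8 genes higher), and the list of 5 granulocyte and monocyte progenitor genes to 11.3 against 5.06 (5 of 5 higher). Of 8 eosinophil markers 1 was at 0, and the most abundant was Prg2 (eosinophil major basic protein) at 397 CPM, with at least 3 UMIs in 10 gated cells.

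Transcripts of other cells were present. Neutrophil markers summed to 28.6 (vehicle 1), 24.8 (vehicle 2), 56.6 (PM 1) and 17.0 UMIs per 1000 (PM 2) in gated cells, against 181 in the other kept cells, with S100a9 the most abundant at 13550 CPM. PM 1 was the high library and PM 2 the low one, so the list did not separate the groups. S100a8 had a UMI in 89.7% of 4390 cells with at least 3 UMIs of Cd79a and Cd79b (B cell receptor subunits), so S100a8 UMIs also occurred in cells with B cell transcripts. Those cells were not screened for transcripts of other cells. Doublet scores marked 6.90% (vehicle 1), 23.8% (vehicle 2), 24.4% (PM 1) and 16.5% (PM 2) of gated cells, against 7.41%, 6.26%, 10.7% and 7.41% of all kept cells. Cells with at least 10 UMIs of markers of macrophages, B, plasma, T, erythroid or megakaryocyte cells or of Igkc and Ighg2b, called mixed cells here, numbered 3, 5, 33 and 22. Mixed cells were thus concentrated in the PM libraries, and their part in the results was not tested beyond leaving them out.

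At the edge of the conditions the cells inside and outside were similar in Mpo level and depth and differed in other genes. The 47 cells with exactly 3 protease UMIs had Gata2 at 167 CPM, Mpo (myeloperoxidase) at 9017 CPM and a median of 21795 UMIs, and the 71 cells outside with 2 protease UMIs had 144 CPM, 8671 CPM and 23317 UMIs. Cpa3 stood at 61.8 CPM inside and 149 CPM outside, and Cd200r3 at 87.8 and 49.0 CPM. The 35 cells with a single receptor or Cpa3 UMI had Gata2 at 28.0 CPM, against 15.9 CPM in 149 cells outside with none. Of the 460 cells, 149 had fewer than 10 protease UMIs, and their share of the gated cells was 19.5% (vehicle 1), 26.2% (vehicle 2), 35.9% (PM 1) and 40.6% (PM 2).

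To follow maturation, the gated cells were ordered by Mcpt8 UMIs per 10000 UMIs and divided at 8.71 and 68.9 into 3 ranges of equal size, Mcpt8-low (154 cells), Mcpt8-middle (153) and Mcpt8-high (153). The ranges are spans of this level and not cell types, with 28 and 17 cells within 10% of the limits. Prss34 followed Mcpt8: its median was 0.973, 35.0 and 288 UMIs per 10000 in the Mcpt8-low, Mcpt8-middle and Mcpt8-high range, and 66, 21 and 0 cells had no Prss34 UMI. Within each mouse the rank correlation of both levels over cells was 0.914 (vehicle 1, 87 cells), 0.910 (vehicle 2, 84 cells), 0.874 (PM 1, 156 cells) and 0.848 (PM 2, 133 cells). It is given as a description, since both genes are in the gate and share each cell's depth. With each cell thinned to 2000 UMIs it was 0.896, 0.885, 0.859 and 0.819.

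**Figure D1:**
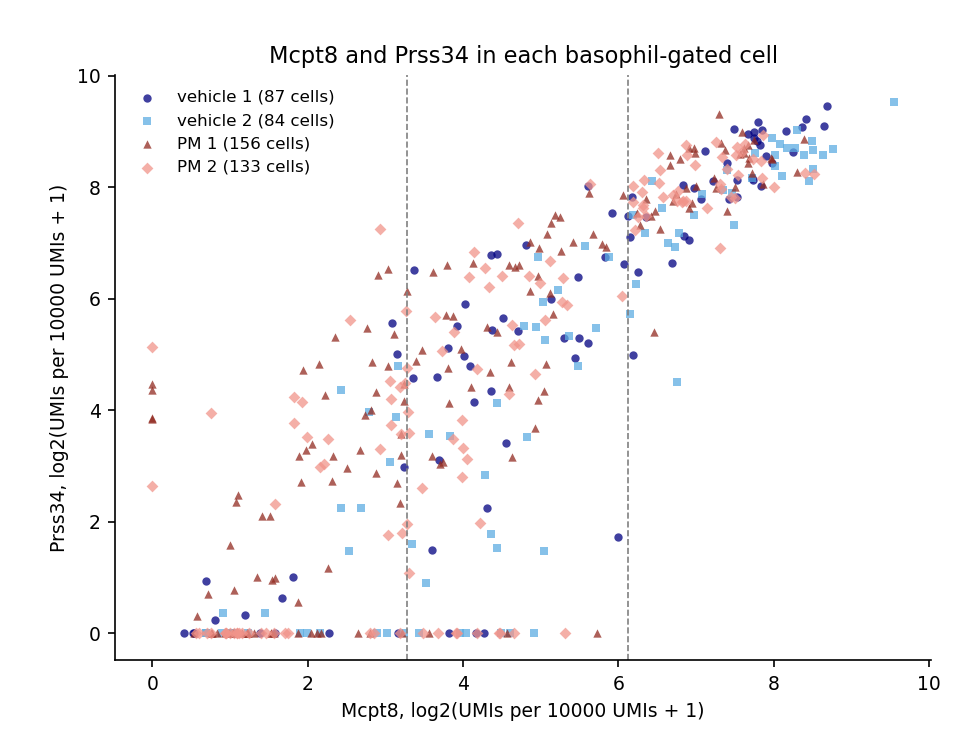
Each point is 1 gated cell, with Mcpt8 on the x axis and Prss34 on the y axis, both as log2 of UMIs per 10000 UMIs plus 1, and the color and shape give the mouse (87, 84, 156 and 133 cells). Lines mark the limits of the ranges at 8.71 and 68.9 UMIs per 10000, and Prss34 rises along Mcpt8 in all 4 mice, with the 87 cells without a Prss34 UMI at 0.

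The ratio of Prss34 to Mcpt8 changed along the ranges. In the Mcpt8-low range there were 0.630 (vehicle 1), 0.488 (vehicle 2), 1.67 (PM 1) and 1.77 (PM 2) Prss34 UMIs per Mcpt8 UMI. In the Mcpt8-middle range the ratios were 1.87, 1.09, 2.67 and 1.898, and in the Mcpt8-high range 1.75, 1.32, 2.002 and 1.74. The vehicle and PM mice were apart in the Mcpt8-low and Mcpt8-middle ranges, though PM 2 and vehicle 1 were close in the latter, and overlapped in the Mcpt8-high range. Both genes belong to the gate and the ranges are set by Mcpt8, so the ratios describe the chosen cells and test nothing.

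The Mcpt8-low range was mixed, and its cells of lowest Mcpt8 level went against the label. In 54.5% of its cells Mpo and Elane (neutrophil elastase) together had at least 10 UMIs, and in the 77 cells of lowest Mcpt8 level Gata2 stood at 107 CPM, Ms4a2 at 98.5 CPM and Mpo at 8753 CPM, at a median depth of 32532 UMIs. The other 77 cells of the range had Gata2 at 1137 CPM, Ms4a2 at 923 CPM, Cd200r3 at 533 CPM and Mpo at 3901 CPM, at a median of 4641 UMIs. Since deep cells weigh more in sums, the summed values of the range lie nearer to those of the first 77 cells. The median depth of the range was 15817.5 UMIs, against 4308 in the Mcpt8-middle and 9241 in the Mcpt8-high range. A cell with little of both proteases reaches 3 protease UMIs only if it is deep, while Prss34 UMIs also let shallow cells with little Mcpt8 pass. Gata2 had a UMI in 76.6% of Mcpt8-low cells, against 7.57% of 3591 cells outside the gate with at least 10 UMIs of Mpo and Elane. These cells are called the Mcpt8-low range and not basophil progenitors.

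Genes were compared between the Mcpt8-high and the Mcpt8-low range on sums per mouse, with the mouse as a block in edgeR's quasi-likelihood test, and a call needed an absolute log2 fold change over 0.5 and a p under 0.05 after Benjamini-Hochberg adjustment. The 5 genes of the gate were left out of the tests. Of 7090 genes tested, 1238 were higher in the Mcpt8-high range (17.5%) and 1277 were lower (18%). With each cell thinned to 2000 UMIs the counts were 86 and 78 of 1382 genes tested, and with a stricter gate (10 protease UMIs and 2 receptor or Cpa3 UMIs) 273 and 216 of 4970.

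Gata2 stood in the Mcpt8-high range at 2020, 2082, 1824 and 2457 CPM against 132, 379, 365 and 491 CPM in the Mcpt8-low range (vehicle 1, vehicle 2, PM 1, PM 2; log2 fold change 2.71, SE 0.38), without overlap. As a marker chosen with results known it is given as a description. Much of the difference lay in the 77 cells of lowest Mcpt8 level (107 CPM), since the other 77 Mcpt8-low cells had 1137 CPM. The 77 gated cells of highest Mcpt8 level had 2318 CPM, and the 77 next below them, nearly all Mcpt8-high, had 1979 CPM. The 10 largest rises among genes of at least 50 CPM were in Thy1 (a glycoprotein of the cell surface, log2 3.84), Rom1 (a tetraspanin, 3.68), Alox5 (5-lipoxygenase, the first enzyme of leukotriene synthesis, 3.30), Edem3 (glycoprotein degradation in the endoplasmic reticulum, 3.08), Lat (an adaptor of IgE receptor signaling, 3.04), H2-Oa (an antigen presentation gene, 2.90), the transcription factor Ets1 (2.87), Fam129a (2.83), Il1rl1 (the receptor of IL-33, 2.77) and Atp6v0a1 (a subunit of the vacuolar proton pump, 2.74). All 10 remained called in each of the 12 or 13 settings in which they could be tested.

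The largest falls were those of Prg2, Elane, Prtn3 (proteinase 3), B4galt6, Mt1 (a metallothionein), Irf8 (a factor of monocyte and dendritic cell development), Gatm, Slco3a1, Cebpe (a factor of late granulocytes) and Trem3. Elane fell from 3939, 2067, 3660 and 3630 CPM in the Mcpt8-low range to 29.1, 15.5, 42.9 and 298 CPM in the Mcpt8-high range (log2 -5.59, SE 0.89, adjusted p = 0.021), and in PM 2 a single cell held 143 of the 157 Mcpt8-high Elane UMIs. The log2 fold change was -5.05 for Prtn3, -4.61 for B4galt6, -3.68 for Mt1 and -3.39 for Irf8. Prg2 stood at 105, 113, 481 and 1150 CPM in the Mcpt8-low range and had 0 UMIs in the Mcpt8-high range of 3 mice, while 8 Mcpt8-low cells and 0 Mcpt8-high cells held at least 3 Prg2 UMIs. Elane was called in 8 of 13 settings, as was Prtn3.

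Receptors differed between the ranges. Of 48 genes on the receptor list 39 were tested, and 23 were higher and 6 lower in the Mcpt8-high range, where 17.5% of all tested genes were higher and 18% lower, with a median log2 fold change of 1.21 against 0.00 over all tested genes. The IL-3 receptor chain Il3ra stood at 177, 199, 196 and 192 CPM in the Mcpt8-high range and at 47.2, 31.4, 57.2 and 44.9 CPM in the Mcpt8-low range (log2 2.06, SE 0.18, adjusted p = 1.2e-09). Fcer1g rose by a log2 of 2.04, Csf2rb (the shared beta chain of the IL-3 receptor) by 1.21, and Cd200r4, an activating receptor, by 3.38. The 6 that fell were Kit, the stem cell factor receptor, and Cd34, a surface sialomucin of progenitors, with Ifngr1, Itga4, Il6ra and Cd24a. Kit stood at 134, 190, 124 and 122 CPM in the Mcpt8-low range and at 23.8, 23.3, 34.9 and 26.6 CPM in the Mcpt8-high range (log2 -2.35, SE 0.22, adjusted p = 4.2e-09), with no overlap between the ranges.

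Of 29 transcription factors tested 15 were higher and 7 lower, with a median log2 of 0.62, where 17.5% of all tested genes were higher and 18% lower. Beside Gata2 the erythroid and basophil factor Gata1 rose by a log2 of 2.07, Runx1 by 1.94 and Cebpa by 1.56. The 7 that fell were Cebpe, Irf8, Gfi1, Myb, Myc, Lmo2 and Meis1, of which Myb, a progenitor factor, fell by 1.60. Among 11 genes of lipid and amine mediators tested, 6 were higher (Hdc, Alox5, Alox5ap, Slc18a2, Alox15 and Cyp11a1) and Lta4h and Ptgs1 were lower. Hdc, the enzyme that makes histamine, rose by 1.43, and Alox5ap, the partner protein of 5-lipoxygenase, by 1.26. Of 12 immediate early genes, a group that handling of cells also raises, 11 were higher, among them Egr1 with a log2 of 1.85.

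Granulocyte progenitor genes were found unequally in the Mcpt8-high range. Mpo had a UMI in 85.0% of Mcpt8-high cells, Ctsg (cathepsin G) in 92.2% and Ms4a3 (a marker of granulocyte and monocyte progenitors) in 79.1%, but Elane in 19.6% and Prtn3 in 35.3%. In the Mcpt8-middle range, of lower depth, the shares were 34.6% for Mpo, 37.9% for Ctsg, 31.4% for Ms4a3, 18.3% for Elane and 35.9% for Prtn3. Cells with at least 3 UMIs of Cd79a and Cd79b, at a median of 2717.5 UMIs, held a UMI of Mpo in 29.2%, of Ctsg in 11.7%, of Ms4a3 in 11.6%, of Elane in 17.3% and of Prtn3 in 24.4%. The Mcpt8-high share for Elane was thus close to theirs. Those cells were not screened for Mpo or Elane, and single cells among them held up to 961 Mpo UMIs in PM 2. They are therefore no background of cells free of progenitor transcripts. There were 58.7 (vehicle 1), 94.8 (vehicle 2), 54.4 (PM 1) and 9.78 (PM 2) Mpo UMIs per Elane UMI in the Mcpt8-high range. Cells outside the gate with at least 10 UMIs of Mpo and Elane held 1.43, 1.39, 1.22 and 1.53 Mpo UMIs per Elane UMI, and the cells with at least 3 UMIs of Cd79a and Cd79b held 2.19, 1.599, 1.41 and 1.86. These sets share cells, so they are not separate comparisons. Mcpt8-high cells therefore did not carry Mpo and Elane in the ratio found in those other cells of the same libraries. Against the Mcpt8-middle range, Ctsg had log2 1.41 (SE 0.39) and Ms4a3 log2 1.26 (SE 0.58), and neither passed the test (adjusted p = 0.15 and 0.45, edgeR).

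**Figure D2:**
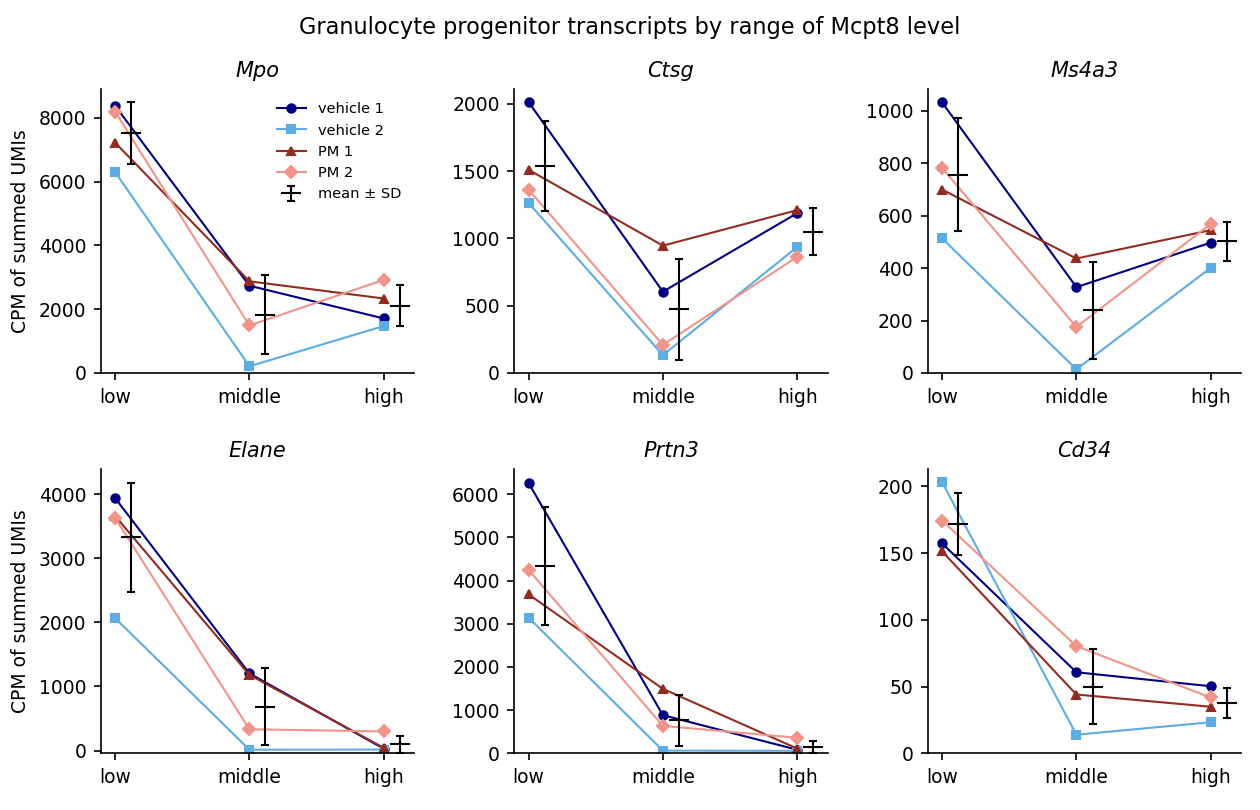
Each panel gives CPM of summed UMIs (y axis) for Mpo, Ctsg, Ms4a3, Elane, Prtn3 and Cd34 in the Mcpt8-low, Mcpt8-middle and Mcpt8-high range (x axis), with 1 line per mouse and the mean ± SD over 4 mice in black. Elane is under 50 CPM in the Mcpt8-high range of 3 mice and at 298 CPM in PM 2, while Mpo stays between 1471 and 2917 CPM.

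Cell cycle transcripts, summed over an S phase and a G2M list, were lowest in the Mcpt8-middle and highest in the Mcpt8-high range of every mouse. The 54 genes of the G2M list summed to 14.2, 14.3, 12.3 and 13.5 UMIs per 1000 in the Mcpt8-high range (vehicle 1, vehicle 2, PM 1, PM 2), to 6.99, 2.97, 7.99 and 7.25 in the Mcpt8-middle range and to 10.9, 7.80, 9.69 and 8.65 in the Mcpt8-low range. The Mcpt8-high range was above both others in each mouse. S phase transcripts, from a list of 43 genes, summed to 3.79, 4.72, 4.74 and 4.31 per 1000 in the Mcpt8-high range, to 2.63, 1.19, 3.13 and 3.04 in the Mcpt8-middle range and to 4.03, 5.41, 3.68 and 4.21 in the Mcpt8-low range, so that in both vehicle mice the Mcpt8-low range had the most S phase transcripts. The sum of both lists was higher in the Mcpt8-high than in the Mcpt8-low range by 4.37 ± 1.28 UMIs per 1000 (SD of the differences, n = 4 mice), in 4 of 4 mice (two-sided exact sign-flip permutation p = 0.13, the smallest that 4 mice allow). The difference to the Mcpt8-middle range was 9.17 ± 3.94 (n = 4, 4 of 4 mice, exact permutation p = 0.13). Without cells marked as doublets the first difference was 2.24.

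At equal depth the pattern was the same. With each cell thinned to 2000 UMIs, Mki67 or Top2a, both expressed in dividing cells, had a UMI in 46.7% of Mcpt8-low, 18.6% of Mcpt8-middle and 58.1% of Mcpt8-high cells of all mice together. Per mouse the shares were 62.5%, 43.5%, 49.3% and 39.1% of Mcpt8-low and 63.9%, 64.5%, 53.8% and 52.4% of Mcpt8-high cells (vehicle 1, vehicle 2, PM 1, PM 2). Vehicle 1 and PM 1 thus differed little. Doublet scores marked 2.78%, 44.1%, 7.5% and 34.9% of the Mcpt8-high cells in the same order. Over single cells the rank correlation of Mcpt8 level with the cycle sum was only 0.306, 0.261, 0.114 and 0.135 in the 4 mice, which is no finding. In 6 groups of gated cells by rising Mcpt8 level the cycle sum was 14.1, 11.6, 7.29, 11.7, 16.9 and 19.1 UMIs per 1000. It fell and then rose, a course that a rank correlation does not measure. Of 52 G2M genes tested between the Mcpt8-high and Mcpt8-low ranges, 20 were higher and 1 was lower, with a median log2 of 0.53. Of 41 S phase genes 7 were higher and 8 lower, with a median of -0.09, shares near the 17.5% and 18% over all tested genes.

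**Figure D3:**
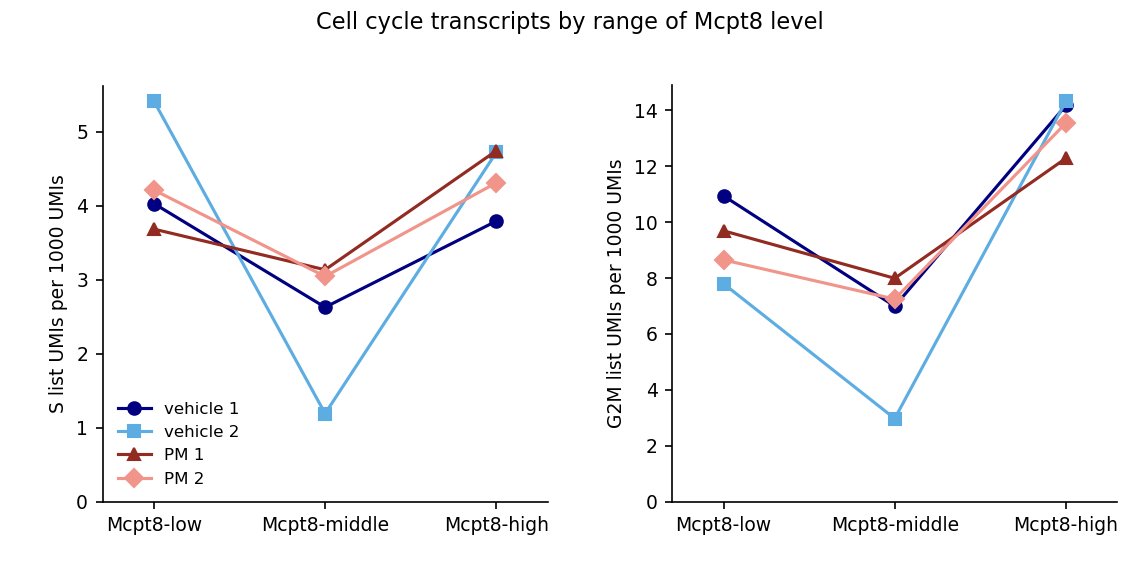
UMIs per 1000 of the S phase list (left) and of the G2M list (right) on the y axis, in the Mcpt8-low, Mcpt8-middle and Mcpt8-high range on the x axis, with 1 line per mouse. In all 4 mice the Mcpt8-high range is highest for G2M, between 12.3 and 14.3, and the Mcpt8-middle range is lowest, between 2.97 and 7.99.

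The Mcpt8-middle and Mcpt8-high ranges, which both carried Gata2 in nearly all cells (98.7% and 99.3%), were compared in the same way, a comparison added after the ranges had been seen. Of 5839 genes tested, 39 were higher (0.668%) and 29 lower (0.497%) in the Mcpt8-high range. These counts were not stable: they were 0 and 1 without vehicle 1, 0 and 3 without PM 2, and 176 and 140 without vehicle 2. The largest rises were in the histone genes Hist1h3d (log2 2.02), Hist1h4d (1.75) and Hist1h3e (1.70), Rrm2 (a subunit of ribonucleotide reductase, 1.95), Spc25 (a kinetochore protein, 1.85), Fbxo5 (an inhibitor of the anaphase-promoting complex, 1.74), Ncapg2 (a condensin subunit, 1.69) and Asf1b (a histone chaperone, 1.69), together with Mns1 (1.62) and Ptprs (1.59). Of 35 S phase genes tested 2 were higher and 0 lower, with a median log2 of 0.78. Of 51 G2M genes tested 7 were higher and 0 lower, and all 51 had a log2 fold change above 0, with a median of 1.24.

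The genes lower in the Mcpt8-high than in the Mcpt8-middle range included Il7r (the IL-7 receptor, log2 -2.24), Dmxl2 (-2.11), the chemokine Ccl9 (-1.98), C3ar1 (the receptor of complement C3a, -1.91) and Ptger4 (a prostaglandin E2 receptor, -1.70). Pdzd4, Tulp4, Igsf6, Tmcc1 and Tcp11l2 completed the 10 largest falls, between -1.63 and -1.57. Ccl9 stood at 887, 2596, 932 and 2104 CPM in the Mcpt8-middle range and at 235, 326, 416 and 663 CPM in the Mcpt8-high range, without overlap.

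Some cytokine transcripts were detected in far more gated cells than cells with Cd79a and Cd79b. Il4 had a UMI in 28.0% of gated cells and Il6 in 56.7%, against 0.0456% and 0.0911% of the cells with Cd79a and Cd79b, at median depths of 6927 and 2717.5 UMIs. With each cell thinned to 2000 UMIs the shares were 13.9% and 33.0%, against 0% (0 of 3460 cells) and 0.0289%. The chemokines Ccl3 and Ccl4 had a UMI in 74.1% and 66.3% of gated cells against 3.26% and 2.07%, the macrophage growth factor Csf1 in 71.96% against 2.98%, the hepatocyte growth factor Hgf in 80.4% against 2.67%, and oncostatin M (Osm) in 62.6% against 9.79%. Il13, the partner of Il4 in type 2 responses, had a UMI in 2.61% of gated cells, in 8.05% of vehicle 1, 3.76% of PM 2 and 0% of vehicle 2 and PM 1. Of the 32 cytokine genes listed, 8 were at 0 in gated cells. Summed over cells, 14 of the 32 had a higher CPM in gated cells than in the other kept cells and 16 a lower one, among them Il1b (20.9 against 196 CPM), Cxcl2 (15.6 against 109 CPM) and Ltb (56.7 against 91.98 CPM).

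Of the cytokines, the low sums of the Mcpt8-low range lay in its 77 cells of lowest Mcpt8 level. Those had Il6 at 11.2 CPM and Ccl3 at 145 CPM, against 160 and 1265 CPM in the other 77 cells of the range. The 77 gated cells next below the 77 of highest Mcpt8 level, nearly all Mcpt8-high, had 184 and 1400 CPM. Il4 stood at 3.15, 16.6, 4.20 and 15.0 CPM in the Mcpt8-low range, 47.2, 97.4, 32.5 and 107 CPM in the Mcpt8-middle range and 47.6, 69.8, 29.5 and 55.1 CPM in the Mcpt8-high range. Its Mcpt8-high level was above the Mcpt8-low range in each mouse (log2 2.37, SE 0.33, adjusted p = 2.3e-06). Of 13 cytokine genes tested between the Mcpt8-high and Mcpt8-low ranges, Il4, Csf1, Ccl3 and Ccl4 were higher, Vegfa and Mif (macrophage migration inhibitory factor) were lower, against 17.5% and 18% of all tested genes, and the median log2 was 1.29. Il6 stood at 3.15, 35.1, 47.1 and 85.6 CPM in the Mcpt8-low range and at 190, 150, 129 and 262 CPM in the Mcpt8-high range, which did not pass the test (log2 2.12, SE 0.61, adjusted p = 0.075).

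Of 12 cytokine genes tested between the Mcpt8-high and Mcpt8-middle ranges, Osm and Ccl9 were lower and none was higher, against 0.497% and 0.668% of all tested genes. Ccl9 was called in 9 of 12 settings, and those without a call included leaving out vehicle 1 (edgeR adjusted p = 0.15) or PM 2 (0.056). Osm stood at 958, 1921, 168 and 1121 CPM in the Mcpt8-middle range and at 262, 507, 169 and 367 CPM in the Mcpt8-high range (log2 -1.45, SE 0.29, adjusted p = 0.036), and PM 1 showed no fall. Ccl3 had 1835, 3222, 743 and 2663 CPM in the Mcpt8-middle range and 1346, 1766, 708 and 1744 CPM in the Mcpt8-high range (log2 -0.56, SE 0.17, adjusted p = 0.13). PM 1 was the low library for Ccl3, Ccl4 and Osm in the Mcpt8-middle and Mcpt8-high ranges.

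**Figure D4:**
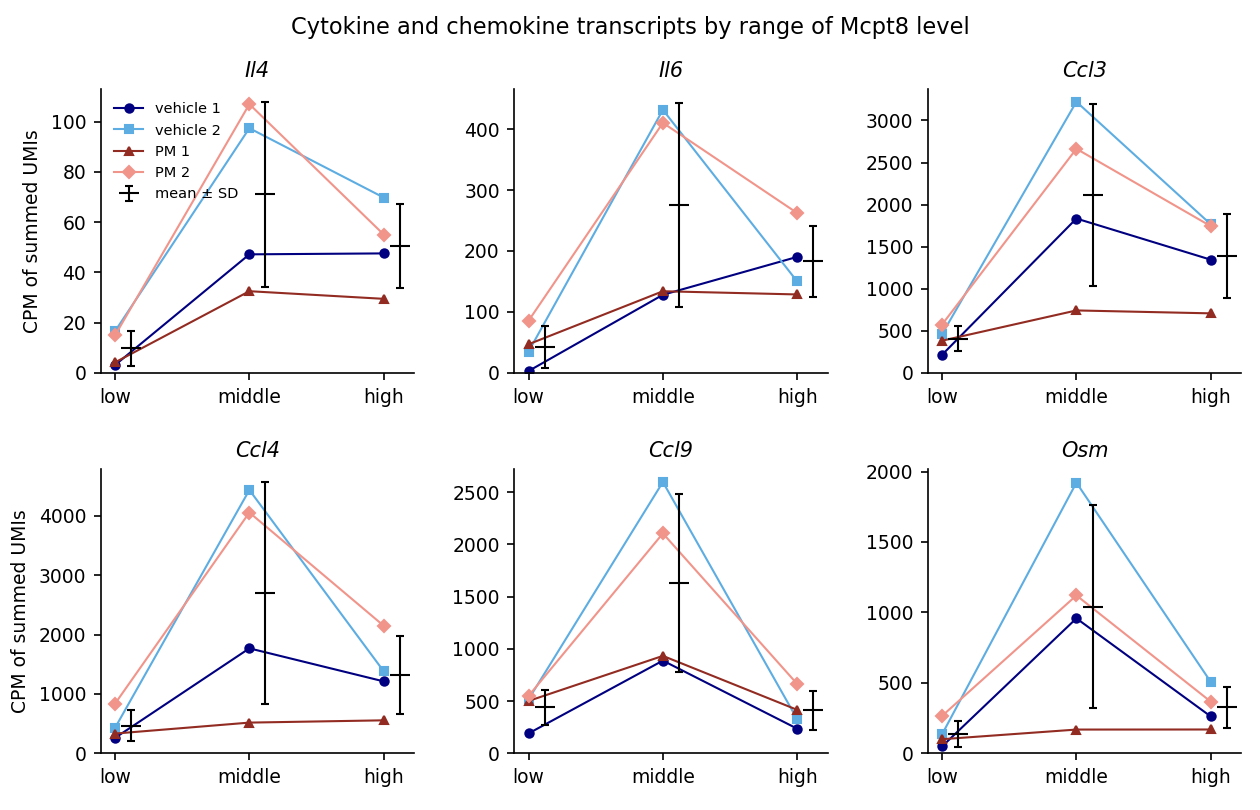
Each panel gives CPM of summed UMIs (y axis) for Il4, Il6, Ccl3, Ccl4, Ccl9 and Osm in the Mcpt8-low, Mcpt8-middle and Mcpt8-high range (x axis), with 1 line per mouse and the mean ± SD over 4 mice in black. Ccl9 is highest in the Mcpt8-middle range of all 4 mice (887 to 2596 CPM), and PM 1 stays lowest for Ccl3 and Ccl4 in the Mcpt8-middle and Mcpt8-high ranges.

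The effect of PM was compared on sums per mouse. Gated cells made up 0.939% (95% exact Clopper-Pearson interval 0.753 to 1.16) of the kept cells of vehicle 1, 1.07% (0.857 to 1.33) of vehicle 2, 1.17% (0.990 to 1.36) of PM 1 and 1.43% (1.20 to 1.70) of PM 2. The mean share was 1.01% ± 0.0947 (SD, n = 2) after vehicle and 1.30% ± 0.191 (n = 2) after PM, higher in 4 of 4 pairs of mice (two-sided exact permutation p = 0.33, the smallest that 2 against 2 mice allow). With the stricter gate the difference of 0.294 percentage points shrank to 0.0310, and without mixed cells to 0.0999, each with 3 of 4 pairs higher after PM. A share of all cells also moves with the number of neutrophils and tumor cells; over kept cells with few neutrophil transcripts the shares were 3.16% (vehicle 1), 2.17% (vehicle 2), 1.896% (PM 1) and 3.60% (PM 2), a difference of 0.0831 points with 2 of 4 pairs higher after PM.

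A larger part of the gated cells lay in the Mcpt8-low range after PM: 18.4% (vehicle 1) and 27.4% (vehicle 2) against 43.6% (PM 1) and 35.3% (PM 2). The groups did not overlap, with a difference of 16.6 percentage points (22.9% ± 6.36 against 39.5% ± 5.83, SD, n = 2 each), of 7.53 points with the stricter gate and of 14.9 points without mixed cells. The range is set by Mcpt8, a gene of the gate, so this difference is a description with no test, and the Mcpt8-low range held 22 (PM 1) and 11 (PM 2) of the mixed cells of the PM mice. Cell cycle transcripts of all gated cells summed to 14.6 and 14.1 per 1000 after vehicle and 13.5 and 13.8 after PM (exact permutation p = 0.33, n = 2 each), and without cells marked as doublets the difference of -0.710 became 0.0397.

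Few genes passed the test between PM and vehicle. Of 9714 genes, 6 were higher (0.0618%) and 1 was lower (0.0103%) after PM, the latter a gene of the gate, so that 0 genes outside the gate were lower, and at an unadjusted p under 0.05 there were 286 higher and 213 lower, or 5.14% in all. The genes called higher were Thy1, Slc7a11, Vcam1, Mt2, Igkc and Ighg2b, and Cpa3, a gene of the gate, was lower. Without PM 2 the counts were 60 and 19, and DESeq2 called 3 and 1.

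Cpa3 stood at 1242 (vehicle 1), 1186 (vehicle 2), 489 (PM 1) and 579 CPM (PM 2), and the groups did not overlap. Cpa3 is 1 of 3 genes of the second condition of the gate, so its level among gated cells is a description, and its call is not counted as a test. The log2 fold change was -1.19 (SE 0.17), and between -1.31 and -0.78 over 16 settings. A Cpa3 UMI was found in 89.7% and 91.7% of vehicle cells against 66.0% and 66.2% of PM cells. Its level was also higher in the Mcpt8-high range, so the larger share of Mcpt8-low cells after PM moved with it. Within the Mcpt8-high range alone it was 3101 and 2464 CPM after vehicle and 1344 and 1535 CPM after PM (log2 -0.93, SE 0.18).

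Thy1, at chr9:44043384-44048579 on the plus strand of GRCm38, stood at 38.1, 30.8, 88.7 and 94.6 CPM (vehicle 1, vehicle 2, PM 1, PM 2; log2 1.40, SE 0.20, adjusted p = 0.030). Both PM mice lay above both vehicle mice, and a UMI was found in 27.6% and 17.9% of vehicle against 48.1% and 39.8% of PM cells. Thy1 is also a T cell marker. The T and NK cell list summed to 0.491, 0.304, 0.432 and 0.406 UMIs per 1000, nearly all of it Nkg7 (411 CPM), while the T cell receptor complex genes stood at 0 (Cd3e), 0.319 (Cd3g) and 2.23 CPM (Cd3d). Within the Mcpt8-high range Thy1 was 97.8 and 64.7 CPM after vehicle and 252 and 253 CPM after PM (log2 1.66, SE 0.24, adjusted p = 6.9e-06). Its log2 fold change was above 0 in all 16 settings, of which 10 called it, and it was not called with DESeq2 (adjusted p = 0.25), without vehicle 2 (0.11), without cells marked as doublets (0.29), with thinned cells (0.93) or in the Mcpt8-low (0.87) and Mcpt8-middle ranges (0.89) alone.

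Single cells held a large part of the UMIs of the other 5 genes. Of Slc7a11, the cystine transporter (5.34, 6.53, 30.7 and 30.04 CPM), the highest cell held 13 of 64 UMIs in PM 1 and 18 of 54 in PM 2. Of Vcam1, an adhesion molecule of macrophages and stroma (9.92, 0.933, 60.0 and 64.0 CPM), a single cell held 39 of 125 UMIs in PM 1 and 39 of 115 in PM 2. Of the metallothionein Mt2, with 0, 1, 63 and 95 UMIs, a single cell held 50 and 90 of those in PM 1 and PM 2. For the immunoglobulin genes Igkc and Ighg2b a single cell of PM 2 held 805 of 912 and 384 of 410 UMIs, and a single cell of PM 1 held 354 of 857 and 160 of 320. Slc7a11, Igkc and Ighg2b lie outside the rule for named genes and were chosen after their values had been seen. Slc7a11 was not called with DESeq2, without cells marked as doublets, with the stricter gate or with thinned cells. With mixed cells left out, Thy1 and Slc7a11 remained called, Vcam1 and Mt2 no longer passed the filter on low counts, and Igkc (log2 1.09, adjusted p = 0.34) and Ighg2b (log2 1.36, adjusted p = 0.57) were not called. Mixed cells are defined by UMIs of Igkc, Ighg2b and markers that include Vcam1, so the loss of these 3 follows from their removal and tests nothing.

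**Figure D5:**
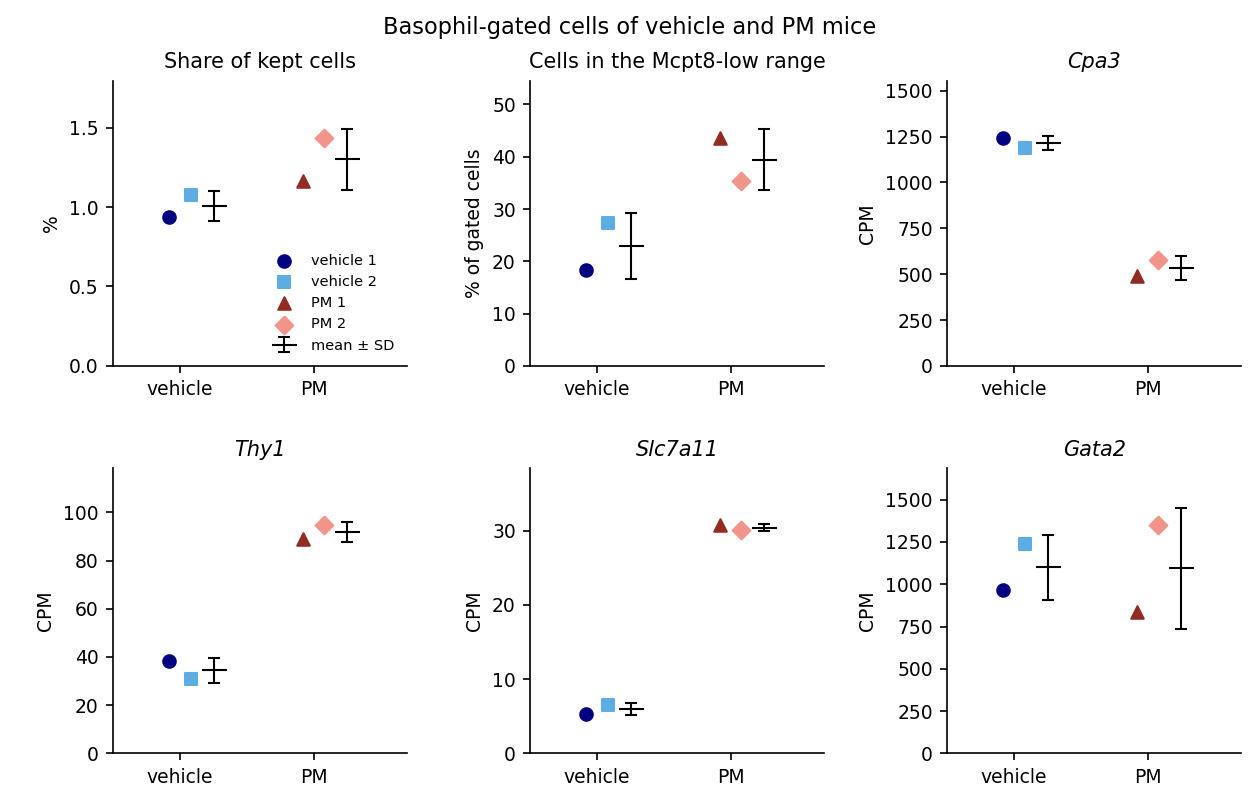
Values per mouse for vehicle and PM, with the mean ± SD (n = 2) in black: share of kept cells (%), share of gated cells in the Mcpt8-low range (%), and CPM of Cpa3, Thy1, Slc7a11 and Gata2. Cpa3 is at 1242 and 1186 CPM after vehicle and at 489 and 579 CPM after PM, Thy1 shows the opposite order, and Gata2 overlaps.

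The other 5 markers had log2 fold changes below 0 between PM and vehicle, which for the 4 genes of the gate are descriptions. Mcpt8 stood at 6385, 7985, 3495 and 4845 CPM (log2 -0.80, SE 0.20), Prss34 had a log2 fold change of -0.44, Fcer1a of -0.56, Ms4a2 of -0.24 and Gata2, outside the gate, of -0.03 (adjusted p = 0.998). Of the genes that came next by p, Ms4a4b (log2 1.63), Myadm (1.42), Id2 (1.06), Phyh (1.12) and Ctsh (1.35) had higher levels after PM, and Gclc (-0.95), Hist1h2bc (-1.19), Per1 (-1.25), Gpr183 (-0.74) and Susd6 (-0.78) lower ones, with adjusted p between 0.135 and 0.669. Some were called in other settings, namely Ms4a4b (adjusted p = 0.0089), Id2 (0.0077) and Hist1h2bc (0.032) without mixed cells, Id2 with thinned cells (0.0072), Ctsh with a replicate block (0.048) and Gclc with the stricter gate (0.013). Id2, an inhibitor of helix-loop-helix factors, stood at 58.7, 80.2, 166 and 121 CPM, and Gclc, an enzyme of glutathione synthesis, at 142, 127, 60.0 and 80.7 CPM. Neither gene overlapped between the groups.

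Cytokines did not pass the test in either direction, with 18 of the 32 listed genes tested and 0 called (edgeR, median log2 -0.02 against 0.00 over all genes, 2 at an unadjusted p under 0.05). For Il6 the study reports an increase after PM in its joint cluster of eosinophil and basophil progenitors. That cluster is another set of cells, and its values are levels and frequencies over cells. In the gated cells Il6 stood at 85.5 and 130 CPM after vehicle and at 83.5 and 198 CPM after PM, so the groups overlapped (log2 0.37, SE 0.48, edgeR adjusted p = 0.998). Its log2 fold change lay between -0.31 and 1.83 over 16 settings, and none called it. Il4 stood at 25.9, 46.7, 15.8 and 44.0 CPM, Ccl3 at 908, 1302, 531 and 1309 CPM, Ccl4 at 875, 1309, 418 and 1822 CPM and Ccl9 at 361, 727, 594 and 874 CPM. For Il6, Il4, Ccl3 and Ccl4 the 2 PM mice lay on opposite sides of at least 1 vehicle mouse, and the spread between PM mice was larger than the difference of the means.

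Receptors (45 tested), transcription factors (32), lipid and amine mediators (12) and histone deacetylases (9) had 0 calls each, with 5, 4, 6 and 1 genes at an unadjusted p under 0.05, which 5.14% of all tested genes had. The 45 receptors include the gate genes Ms4a2 and Fcer1a, at least 1 of them among the 5, so the receptor counts are in part a description. Of the deacetylases that PM targets, Hdac1 stood at 117, 94.2, 118 and 125 CPM, Hdac2 at 96.1, 84.0, 77.7 and 89.6 CPM and Hdac3 at 33.6, 31.7, 44.1 and 48.4 CPM, and the class IIb genes Hdac6 and Hdac10 lay between 6.72 and 10.3 CPM. Among receptors other than the gate genes Ms4a2 and Fcer1a, Ly6e, Cd63, Fcer1g, Cd69, Cd200r3 and Clec12a were the most abundant by CPM, and Cd200r3, an activating receptor of basophils, stood at 421, 564, 338 and 498 CPM. Alox5 was 240 and 257 CPM after vehicle and 168 and 169 CPM after PM (log2 -0.56, adjusted p = 0.67).

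Interferon response genes had mostly positive fold changes after PM, with no call over all gated cells. Of 41 tested genes 40 had a log2 fold change above 0 after PM, with a median of 0.48 against 0.00 over all genes, 0 were called and 9 had an unadjusted p under 0.05, which 5.14% of all tested genes had. The median moved with single mice, to 0.23 without PM 1 (30 of 41 above 0), 0.39 without vehicle 2 (33 of 43) and 0.72 without PM 2 (42 of 43, 3 called), where 60 genes in all were higher and 19 lower of 9761. With no filter on low counts 5 of 48 were called, where 40 genes in all were higher and 21 lower of 15516. Bst2, an antiviral surface protein, stood at 70.2, 51.3, 111 and 95.7 CPM (log2 0.76, SE 0.20, adjusted p = 0.67), Oasl2 at 12.97, 7.46, 24.9 and 17.8 CPM, and Isg15 at 3.05, 4.67, 16.3 and 8.35 CPM. The list summed to 1.42, 1.11, 1.91 and 1.45 UMIs per 1000 in gated cells, against 2.27 in the other kept cells, and 35 of 37 tested genes were above 0 without mixed cells (median log2 0.64). There Ifit1, found in 12 gated cells, was called (log2 5.17, edgeR adjusted p = 0.016). With a replicate block Ifi27l2a was called (log2 1.81, adjusted p = 0.022) at 29.8, 13.995, 132 and 28.4 CPM, which overlap, and without cells marked as doublets 24 of 32 were above 0 with 0 called (median 0.22, 3 at an unadjusted p under 0.05). Of the 48 interferon genes 42 had a lower CPM in gated than in other kept cells. Over all gated cells, 10 of 10 neutrophil (median log2 0.38), 5 of 6 monocyte (0.29) and 4 of 5 erythroid markers (3.74) were also above 0 after PM. Of stem and progenitor cell markers 1 of 4 was, and of mast cell markers 0 of 2. The part of transcripts of other cells in these fold changes was not tested.

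PM was also compared within each range, a comparison added after the ranges had been seen. The Mcpt8-middle range had 0 calls in either direction. In the Mcpt8-high range 7 genes were higher and 5 lower, the latter with Cpa3, a gene of the gate whose call is not counted as a test. Among the others were Thy1, Ccl9 (log2 0.97), Mpo (0.75), Id2 (1.31), Gclc (-1.25), Hist1h2bc (-1.26) and Dusp5 (-1.31). Mcpt8-high Ccl9 stood at 235, 326, 416 and 663 CPM and Mpo at 1708, 1471, 2333 and 2917 CPM, and both PM mice lay above both vehicle mice. In the Mcpt8-low range Epx (eosinophil peroxidase, log2 2.98) was called higher and none was lower. Mcpt8-low Epx stood at 9.44, 12.9, 87.4 and 89.9 CPM, but only 16 gated cells held an Epx UMI, and over all gated cells the levels were 151, 7.46, 56.1 and 49.5 CPM and overlapped, with vehicle 1 at 644 CPM in its Mcpt8-middle range. Mcpt8-low Prss34 stood at 99.1 and 111 CPM after vehicle and at 365 and 347 CPM after PM. It is given as a description, since the gate used Prss34 and cells with little Mcpt8 pass it through Prss34 UMIs.

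Whether PM acted differently on gated cells than on the other kept cells was tested as an interaction with the mouse as a block. Of 14915 genes 12 were called (0.0805%), and leaving out a mouse gave 348 (vehicle 2), 183 (PM 2), 111 (vehicle 1) and 33 (PM 1). Mcpt8 and Prss34 are among the 12, but both define the gate, so cells with little of them are in the other group by construction and their differences (log2 -1.64 and -1.22) test nothing. Of the other 10, 6 were relatively higher after PM in gated cells and 4 lower. Thy1 (0.08, adjusted p = 0.995) was not among the 12.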

How the data were processed

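Droplet libraries (10x Genomics 3′ v3.1) of BM from 4 mice were aligned by the authors with Cell Ranger (6.0.1 in the matrix headers), and the deposited values are raw counts, the number of UMIs per gene and barcode, with no normalization. The study's methods name a GRCm38 reference and the submitters' processing notes GRCm39. Of the 32285 gene identifiers 32158 are in GENCODE M21, so GRCm38 was used for coordinates, with RefSeq windows of GRCm38.p6. Kept barcodes had 300 or more genes and no more than 20% mitochondrial UMIs, as in the methods.

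Counts of the gated cells were summed per mouse (and range of Mcpt8 level) and tested with edgeR 4.0.16 under R 4.3.3 (TMM, filterByExpr, robust quasi-likelihood fit), with treatment as the only term or, between ranges and in the interaction, the mouse as a block. A call needed an absolute log2 fold change over 0.5 and a p under 0.05 after Benjamini-Hochberg adjustment. CPM values are raw, whereas fold changes come from the fit. DESeq2 1.42.0 was an alternative. Mice are the replicates, and p-values measure the spread between these mice. Shares were tested by exact permutation (scipy 1.17.1), and intervals cover counting error only. Cells were scored for doublets with scanpy 1.11.5 (python 3.11.15), and since the automatic threshold marked almost no cell in 2 mice, the highest scores were taken at 0.8% per 1000 kept cells. Scripts were tested on simulated data.

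The gated cells, the gene lists and the ranges were chosen with earlier results of these data known. Named genes are the markers, Il6, the called and most abundant genes of the lists, and the 10 largest called changes in each direction with the same direction in all pairs of mice or all mice (mean of at least 20 CPM for PM, 50 CPM for ranges), or the 5 of smallest p where fewer than 5 were called, leaving out immunoglobulin, T cell receptor, mitochondrial, hemoglobin and predicted genes. The doublet rule, the removal of mixed cells, the comparison with the Mcpt8-middle range and PM within ranges were added after seeing the data. The other settings were a stricter gate, a stricter cell filter, thinning to 2000 UMIs, other size factors, no filter on low counts, a replicate block, 2 ranges in place of 3, and leaving out each mouse.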

Additional observations from a re-analysis of the deposited data

Results flagged for a closer look

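The effect of PM on 12 genes differed between gated cells and the other kept cells by the interaction test (edgeR, Benjamini-Hochberg adjusted p under 0.05, values as log2 difference of the PM effect, gated minus other cells). Leaving out a mouse moved the number of such genes to between 33 and 348. Genes relatively lower in gated cells were Mcpt8 (-1.64) and Prss34 (-1.22), which belong to the gate and so test nothing, with I730030J21Rik (-2.003), Rnase12 (-1.81), Faah (-1.35, fatty acid amide hydrolase) and Igll1 (-4.40, a surrogate light chain of B cell precursors). Of Igll1 the gated cells held 4, 27, 3 and 0 UMIs (vehicle 1, vehicle 2, PM 1, PM 2), and the 27 came from a single cell. Rnase12 stood at 92.3, 99.8, 85.9 and 89.02 CPM in gated cells and at 0.379, 0.367, 1.19 and 1.46 CPM in the other cells. Vehicle lay above PM in the gated cells and below PM in the other cells.

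Genes relatively higher in gated cells were Igkc (3.23), Iglc3 (10.8) and Jchain (1.503), all of antibodies, with Ctsh (1.45, cathepsin H), H2-Q10 (1.94) and Phyh (1.40, a peroxisomal enzyme). Iglc3 had 0 UMIs after vehicle and 22 (PM 1) and 15 (PM 2) after PM, so its fitted value depends on the prior count and is no bound. Ctsh stood at 25.9, 18.7, 71.9 and 41.7 CPM in gated cells and at 133, 131, 142 and 123 CPM in the other cells. Mixed cells, of which the PM mice held 33 and 22 and the vehicle mice 3 and 5, were in part chosen by their Igkc UMIs, so the lower Igkc difference without them (0.998) follows from the choice. With mixed cells left out Jchain stood at 2.12 and stayed called, and Iglc3 and Igll1 were no longer called (adjusted p = 0.88 and 0.91), while the other 10 of the 12 genes, Igkc included, were.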

How the results depend on the processing

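With 2 mice a group, shares cannot reach p under 0.05, and the count of called genes between PM and vehicle (6 higher, 1 lower, genes of the gate included here and in the other settings) changed with most settings. Higher genes numbered 3 with DESeq2, 40 with no filter on low counts, 3 with the stricter gate, 2 in the Mcpt8-low range (Epx and Prss34, a gene of the gate) and 0 in the Mcpt8-middle range. Lower genes numbered 21 with no filter, 0 without doublets, 3 without mixed cells, 0 in the Mcpt8-low and Mcpt8-middle ranges and 5 in the Mcpt8-high range. Replicate numbers are not stated to pair the mice. The correlation of deviations of same-numbered mice was -0.012, a single value, since with 2 mice a group both numbers must give the same. It does not settle whether the mice were paired. With a replicate block 13 genes were higher and 4 lower. Between the Mcpt8-high and Mcpt8-low range the counts were 744 and 741 with DESeq2, 273 and 216 with the stricter gate, and 86 and 78 with thinned cells. Between the Mcpt8-high and Mcpt8-middle range they were 214 and 153 with no filter, 0 and 1 with the stricter gate, 213 and 236 without mixed cells, 112 and 122 with thinned cells, and 49 lower without doublets. Interaction genes (12) numbered 22 with DESeq2 size factors, 142 with no filter, 56 without doublets, 65 with the stricter gate and 162 without mixed cells. The share difference (0.294 points) was 0.0310 with the stricter gate, 0.0999 without mixed cells and 0.0831 over cells with few neutrophil transcripts, and that of the Mcpt8-low range (16.6 points) was 7.53 with the stricter gate. The cycle difference of PM and vehicle was 0.0397 without doublets and -1.74 without mixed cells. That of the Mcpt8-high and Mcpt8-low ranges was 2.24 without doublets, 8.34 with the stricter gate and 6.02 with thinned cells.

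Leaving out each mouse in turn gave 4 to 60 higher and 1 to 19 lower genes for PM, 952 to 1178 and 1016 to 1281 between the Mcpt8-high and Mcpt8-low range, 0 to 176 and 1 to 140 between the Mcpt8-high and Mcpt8-middle range, and 33 to 348 interaction genes. The highest PM counts came without PM 2, and the highest interaction and Mcpt8-high against Mcpt8-middle range counts without vehicle 2. The share difference lay between 0.159 and 0.429 points and the Mcpt8-low difference between 12.1 and 21.1. Cycle differences lay between -0.971 and -0.449 for PM, 3.88 and 4.83 for Mcpt8-high against Mcpt8-low range and 7.27 and 10.3 for Mcpt8-high against Mcpt8-middle range. The cause of these changes was not tested. None of the genes called between PM and vehicle changed sign in another setting, nor did the 10 largest changes in each direction between ranges. Prss34, a gene of the gate and not called between PM and vehicle (log2 -0.44), was called with the other sign in the Mcpt8-low range (log2 1.75), which is a description. Depth limits the Mcpt8-middle range most, at a median of 4308 UMIs a cell.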

Other observations

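Mcpt8 UMIs were also found outside the gate, at 4.12 and 4.24 CPM after vehicle and 7.85 and 8.56 CPM after PM in the other kept cells. A UMI was found in 2.19% and 2.32% of those cells after vehicle and in 3.99% and 3.52% after PM, at median depths of 6067, 5330.5, 4717 and 4805 UMIs over all kept cells. Both PM mice lay above both vehicle mice, at a lower depth. In cells outside the gate with at least 10 UMIs of Mpo and Elane, Mcpt8 stood at 12.9 and 15.3 CPM after vehicle and at 18.4 and 24.3 CPM after PM. Cells outside the gate are by construction those with few Mcpt8 and Prss34 UMIs, so these values are a description. The number of such cells whose Mcpt8 came from free RNA was not tested.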
